A study of Mus musculus with 12 samples.

Results

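The genes described here encode the enzymes that make and break down polyamines and the proteins that control ornithine decarboxylase. They were chosen by symbol, as Odc1, Amd1, Srm and Sms (synthesis), Azin1, Oaz1 and Oaz2 (control of ornithine decarboxylase), and Sat1 and Smox (breakdown). All 9 were found among the 17432 genes of the deposited table. The liver transcriptome of 12 male wild-type C57BL/6J mice aged 8 to 10 weeks was measured by RNA-Seq, with 6 livers in the Sedentary group and 6 in the Exercise group. Every mouse was kept for 3 days on daytime meals, was made used to the treadmill and was refed for 3 hours on the last day. Food was then removed from both groups. Exercise mice ran at 14 m/min for 3 hours, Sedentary mice did not run, and tissue was taken from both groups at the same time. The comparison asks which hepatic transcripts differ after a single bout of postprandial exercise.

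Polyamines (putrescine, spermidine and spermine) are small, positively charged amines that bind RNA and DNA and are needed for translation and cell growth. Ornithine decarboxylase makes putrescine from ornithine, and spermidine synthase and spermine synthase extend it with aminopropyl groups that come from S-adenosylmethionine. Antizymes bind ornithine decarboxylase and carry it to the proteasome, antizyme inhibitor takes antizyme away from it, and acetylation and oxidation return the longer polyamines to the shorter ones. In liver, ornithine decarboxylase is a classic early response to feeding, hormones and regeneration. Much of the control of this pathway acts on translation and protein turnover, which mRNA levels do not show.

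None of the 9 genes passed the test between exercised and sedentary livers. The quasi-likelihood test of edgeR was run on the counts of the 12344 genes that passed the filter on low counts, all 9 genes among them, and p-values were adjusted by Benjamini-Hochberg at a threshold of 0.05. In the same test 42.4% of all genes were called, 21.1% higher and 21.3% lower after exercise. None of the 9 genes separated the groups without overlap, whereas 22.3% of all genes tested did. At an unadjusted p under 0.05 the count was 3 of 9 (Amd1, Srm and Oaz2), and DESeq2 and limma-voom likewise called 0 of 9 after adjustment and gave 3 of 9 before it. At that unadjusted threshold edgeR's share over all genes tested was 49.6%. The size of the log2 fold change had a median of 0.15 over the 9 genes and of 0.21 over all genes tested. The 95% confidence interval reached a 1.5-fold change for 1 gene, Smox, and a 2-fold change for none.

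**Figure D1:**
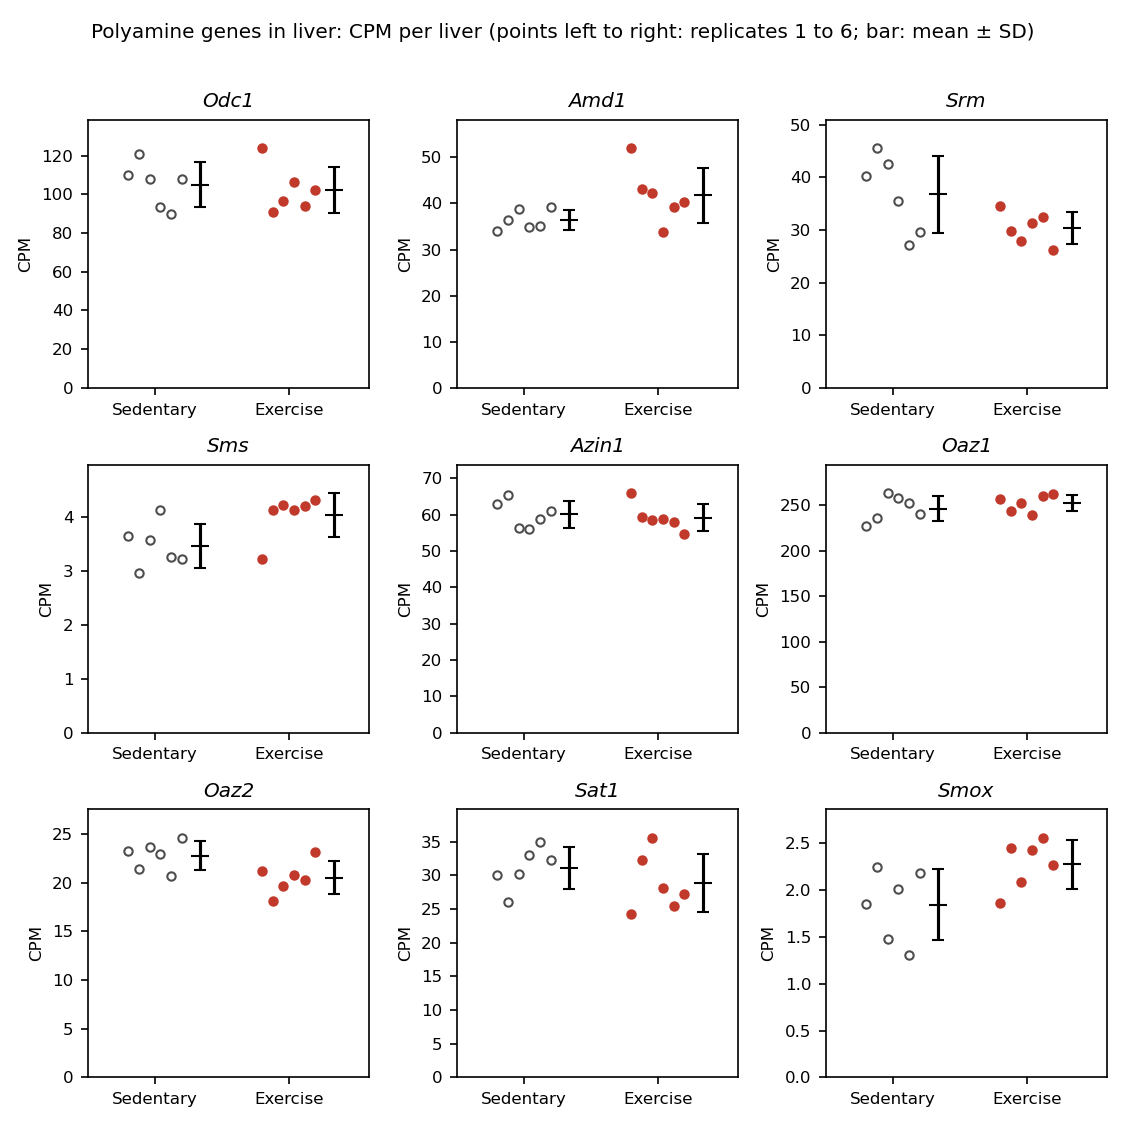
Each panel plots 1 gene in library-scaled counts (CPM, y axis from 0) in the 6 Sedentary livers (open circles) and the 6 Exercise livers (filled circles), with the mean ± SD as a bar at the right of each group. The groups overlap in all 9 panels, and the first Exercise circle (replicate 1) is the highest of its group for Odc1, Amd1, Srm and Azin1 and the lowest for Sms, Sat1 and Smox.

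Library totals ran from 18745379 to 19324461 estimated reads, and levels are CPM after TMM scaling (trimmed mean of M values), which evens out differences in composition between libraries. The summed level of 8 hepatocyte markers was 129760 to 175120 CPM in Sedentary and 163640 to 184480 CPM in Exercise livers. Most of this sum was Alb, at a mean of 100400 CPM in Sedentary and 118790 CPM in Exercise livers. Alb, Ass1 and Tat were called higher (log2 fold change 0.24, 0.35 and 1.83), and the other 5 were not called. The 2 adipocyte markers together stayed at or below 0.101 CPM in each liver. Striated muscle markers summed to 11.1 to 23.0 CPM in Sedentary livers, against 0.058 to 11.3 CPM in Exercise livers. All 4 that could be tested (Myh6, Myh7, Actc1 and Tnnt2) were called lower, and the source of these muscle reads was not tested. Of 6 endothelial markers 2 were called higher and 1 lower (summed level 117 to 154 CPM in Sedentary and 130 to 192 CPM in Exercise livers), and of 6 stellate cell and fibroblast markers 2 were called lower (149 to 200.1 CPM and 136 to 201 CPM). Kupffer cell and macrophage markers summed to 63.3 to 108 CPM and 74.9 to 116 CPM, and erythroid markers to 416 to 684 CPM and 414 to 527 CPM, in Sedentary and Exercise livers. The part of these cells in the values below was not tested. The Exercise liver with 11.3 CPM of muscle markers was replicate 1, and the next highest was at 1.07 CPM. For cell types of the liver, a smaller number of cells and less RNA per cell cannot be told apart in bulk tissue.

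Among the synthesis enzymes, Odc1 (gene ID 18263), which encodes ornithine decarboxylase, had lowest, median and highest values of 89.98, 108 and 121 CPM in Sedentary livers and of 90.7, 99.6 and 124 CPM in Exercise livers. The Exercise range covered nearly the same span as the Sedentary range, with 5 of 6 Exercise livers inside it and replicate 1 just above it. The means were 105 ± 11.4 CPM and 102 ± 11.85 CPM (SD, n = 6 each). The log2 fold change was -0.04 (standard error 0.08, 95% confidence interval -0.21 to 0.13, adjusted p = 0.744 from edgeR), and a two-sided exact permutation test of log2(CPM + 0.5) gave p = 0.68. On a linear scale the interval ran from 0.866-fold to 1.1-fold. Odc1 lies on chromosome 12 of GRCm38 from 17544794 to 17551505, plus strand, and overlaps the short annotated gene Gm22748 on the same strand. Its deposited counts were whole numbers in all 12 livers, as they are when no reads are divided between genes.

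Amd1 (gene ID 11702) encodes S-adenosylmethionine decarboxylase, which makes the aminopropyl donor for both later steps. Its level was 34, 35.8 and 39.2 CPM (lowest, median and highest) in Sedentary livers and 33.8, 41.3 and 51.9 CPM in Exercise livers. Of the Exercise livers, 4 were above the highest Sedentary liver and 1, replicate 4, was below the lowest. The means were 36.4 ± 2.16 CPM and 41.7 ± 5.95 CPM (SD, n = 6 each), and the log2 fold change of 0.20 (standard error 0.08, 95% confidence interval 0.03 to 0.37) did not pass the test (adjusted p = 0.0562 from edgeR; exact permutation p = 0.0563). A single liver decided this call, since without Exercise replicate 4 the log2 fold change was 0.26 (adjusted p = 0.0117 from edgeR) and without Exercise replicate 1 it was 0.13 (adjusted p = 0.145). Amd1, on the minus strand of chromosome 10 from 40287458 to 40302186, shares reads with its near copy Amd2. Its counts were not whole in 4 livers, the number in which Amd2 had any reads, and the sum of the 2 genes was whole in all 12 (within 0.011 counts). Amd2 held at most 1.38% of that sum, so the assignment moved the level of Amd1 little.

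Srm (gene ID 20810) encodes spermidine synthase, which adds the first aminopropyl group. It stood at 27.2, 37.9 and 45.5 CPM in Sedentary livers and at 26.2, 30.6 and 34.5 CPM in Exercise livers (lowest, median and highest). Every Exercise liver was below the Sedentary median, but Sedentary replicates 5 and 6 were as low as the Exercise livers, at 27.2 and 29.7 CPM, and 5 of 6 Exercise livers lay inside the Sedentary range. The means were 36.8 ± 7.26 CPM and 30.4 ± 3.00 CPM (SD, n = 6 each). Its log2 fold change was -0.28 (standard error 0.12, 95% confidence interval -0.53 to -0.03, adjusted p = 0.0684 from edgeR; exact permutation p = 0.0887). Without Sedentary replicate 5 it was -0.34 (adjusted p = 0.011 from edgeR) and without Sedentary replicate 6 -0.33 (adjusted p = 0.0284), both past the threshold. Srm spans 148591503 to 148594993 on the plus strand of chromosome 4, with no other annotated gene over it.

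Sms (gene ID 20603), the gene of spermine synthase, was read only 59 to 82 times per liver. Its level was 2.96, 3.42 and 4.13 CPM in Sedentary livers and 3.23, 4.17 and 4.31 CPM in Exercise livers (lowest, median and highest). The other 5 Exercise livers lay between 4.13 and 4.31 CPM, near or above the highest Sedentary liver, and replicate 1 fell among the lower Sedentary livers. The log2 fold change was 0.22 (standard error 0.11, 95% confidence interval -0.02 to 0.46, adjusted p = 0.127 from edgeR), and the exact permutation test gave an unadjusted p of 0.0476. The coefficient of variation was 11.9% in Sedentary and 9.98% in Exercise livers, and counting error alone gives 12.1% and 11.6% at these depths, so no spread beyond counting was detectable for this gene. Without Exercise replicate 1 the log2 fold change was 0.28 (adjusted p = 0.0532 from edgeR). Sms is on the minus strand of the X chromosome, from 157443855 to 157492287.

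The antizymes are the members whose control is written into the mRNA sequence. The main reading frame of an antizyme is reached only when the ribosome shifts forward by a single base at a stop codon near the start of the message, a step that polyamines favour. The windows below show this site in both antizyme genes, from transcripts of GENCODE M21 that hold the unshifted sequence (GRCm38, plus strand, chr10:80828265-80828324 for Oaz1 and chr9:65686242-65686301 for Oaz2). Capitals mark the last codon read in the first frame and the stop codon TGA whose first base is skipped.
Oaz1: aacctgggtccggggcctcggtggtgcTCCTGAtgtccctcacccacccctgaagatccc
Oaz2: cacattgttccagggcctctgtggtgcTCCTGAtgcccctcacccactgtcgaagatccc
Of the 60 bases, 49 (81.7%) were the same in both genes, with 21 of 27 before the capitals and 22 of 27 after them. Both sites lie in coding exons. The counts report how much of each message was present and not how often the shift took place.

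Oaz1 (gene ID 18245), the most abundant of the 9 messages, had 227, 246 and 263 CPM in Sedentary livers and 239, 255 and 262 CPM in Exercise livers (lowest, median and highest). All 6 Exercise livers lay inside the Sedentary range. The means were 246 ± 13.8 CPM and 252 ± 9.27 CPM (SD, n = 6 each), and the log2 fold change was 0.04 (SE 0.05, 95% confidence interval -0.08 to 0.15, adjusted p = 0.616 from edgeR; exact permutation p = 0.348). The sign turned to -0.06 when libraries were scaled by their size alone. Oaz1 (chromosome 10, plus strand, 80826656 to 80829290) holds the annotated microRNA gene Mir1982 on the same strand.

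Oaz2 (gene ID 18247), which encodes a second antizyme (chromosome 9, plus strand, 65668001 to 65690300), stood at 20.7, 23.1 and 24.6 CPM in Sedentary livers and at 18.1, 20.5 and 23.1 CPM in Exercise livers (lowest, median and highest). All 6 Exercise livers were below the Sedentary median and 3 were below the lowest Sedentary liver. The means were 22.8 ± 1.47 CPM and 20.5 ± 1.67 CPM (SD, n = 6 each). The log2 fold change of -0.15 (standard error 0.07, 95% confidence interval -0.29 to -0.01) did not pass the test (adjusted p = 0.0764 from edgeR; exact permutation p = 0.0346, unadjusted). This gene was past the threshold with upper quartile factors (log2 fold change -0.17, adjusted p = 0.047 from edgeR), without Exercise replicate 6 (-0.18, adjusted p = 0.0412) and without Sedentary replicate 5 (-0.17, adjusted p = 0.0476). With libraries scaled by size alone it was -0.25 (adjusted p = 0.00896 from edgeR), a scaling under which the median of all genes tested was -0.10.

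Azin1 (gene ID 54375) encodes antizyme inhibitor, a relative of ornithine decarboxylase that binds antizyme but has no enzyme activity. Its lowest, median and highest levels were 56.1, 60.0 and 65.5 CPM in Sedentary livers and 54.6, 58.8 and 65.9 CPM in Exercise livers. The ranges were nearly the same, with 4 of 6 Exercise livers inside the Sedentary range. The log2 fold change was -0.02 (standard error 0.06, 95% confidence interval -0.14 to 0.10, adjusted p = 0.785 from edgeR; exact permutation p = 0.667), the narrowest interval after that of Oaz1. Azin1 lies on chromosome 15 of GRCm38 from 38487427 to 38519266, minus strand, with Mir6951 on the same strand and Gm49077 on the other.

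**Figure D2:**
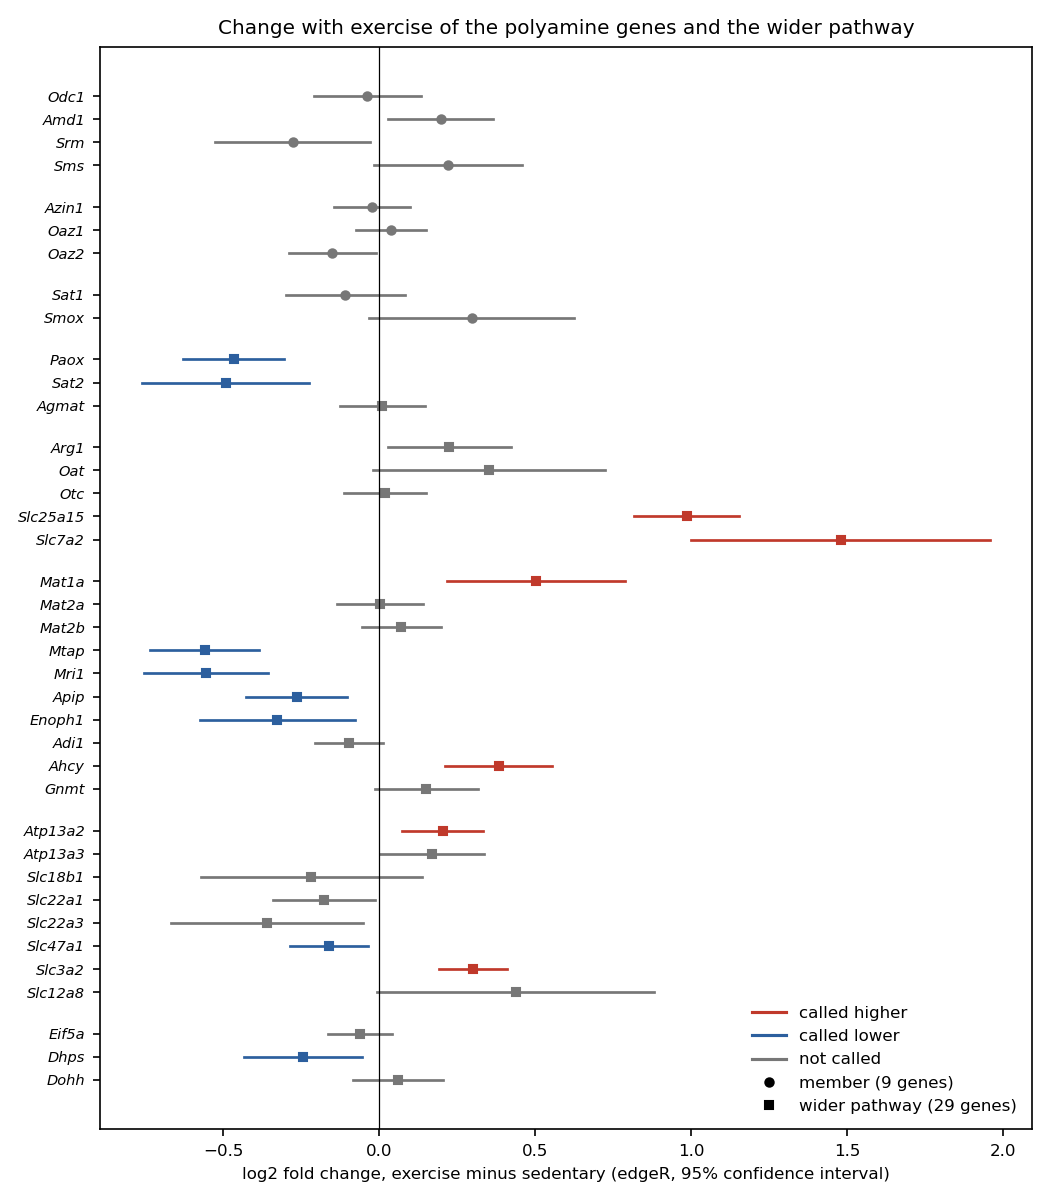
The x axis is the log2 fold change (exercise minus sedentary, edgeR) with its 95% confidence interval for the 9 polyamine genes (circles, at the top) and for 29 other tested genes of the pathway (squares), in groups by role. All 9 circles are grey (not called), while 6 squares are red (called higher) and 8 are blue (called lower).

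On the breakdown side, Sat1 (gene ID 20229) encodes spermidine/spermine N1-acetyltransferase, which tags polyamines for oxidation or export. It stood at 26.0, 31.2 and 34.9 CPM in Sedentary livers and at 24.3, 27.7 and 35.5 CPM in Exercise livers (lowest, median and highest). Sat1 is a short gene on the minus strand of the X chromosome, from 155213132 to 155216449. Exercise livers were found above, inside and below the Sedentary range (1, 3 and 2 livers). The means were 31.1 ± 3.10 CPM and 28.8 ± 4.31 CPM (SD, n = 6 each), and the log2 fold change was -0.11 (SE 0.09, 95% confidence interval -0.30 to 0.08, adjusted p = 0.362 from edgeR; exact permutation p = 0.281).

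Smox (gene ID 228608) encodes spermine oxidase, which turns spermine back into spermidine, and was read only 24 to 48 times per liver. It lies on the plus strand of chromosome 2 from 131491496 to 131525922. Its level was 1.31, 1.93 and 2.24 CPM in Sedentary livers and 1.86, 2.35 and 2.56 CPM in Exercise livers (lowest, median and highest). Of the Exercise livers, 4 were above the highest Sedentary liver and 2 were inside the Sedentary range. The log2 fold change of 0.30 (standard error 0.16, 95% confidence interval -0.03 to 0.63) had the largest size and the widest interval of the 9 and did not pass the test (adjusted p = 0.138 from edgeR). The exact permutation test gave an unadjusted p of 0.0498. Its coefficient of variation was 20.7% in Sedentary and 11.5% in Exercise livers, and counting error alone amounts to 16.5% and 15.5% of the mean.

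The deposited FPKM values, which are per length of transcript, allow levels of different genes to be set side by side. Oaz1 was far above the others, at a median of 243 FPKM (224 to 260) over the 12 livers, 6.04 times that of Odc1 at 40.3 FPKM (34.9 to 52.5). Srm (24.7 FPKM, 19.8 to 38.6) and Sat1 (23.4 FPKM, 16.8 to 27.0) followed and could not be ordered, since Srm was above Sat1 in 9 of 12 livers and their ranges overlapped. Azin1 (13.7 FPKM, 12.6 to 16.9), Amd1 (12.3 FPKM, 10.3 to 15.8) and Oaz2 (11.9 FPKM, 10.0 to 14.4) had ranges that overlapped. Within livers, Azin1 was above Amd1 in 11 of 12 and above Oaz2 in 12 of 12, while Amd1 was above Oaz2 in 4 of 12. Smox (1.13 FPKM, 0.66 to 1.52) and Sms (1.06 FPKM, 0.85 to 1.20) were lowest and each ranked above the other in 6 livers. The Oaz1 message exceeded that of the decarboxylase it controls, and spermidine synthase mRNA exceeded spermine synthase mRNA, in every liver of both groups.

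**Figure D3:**
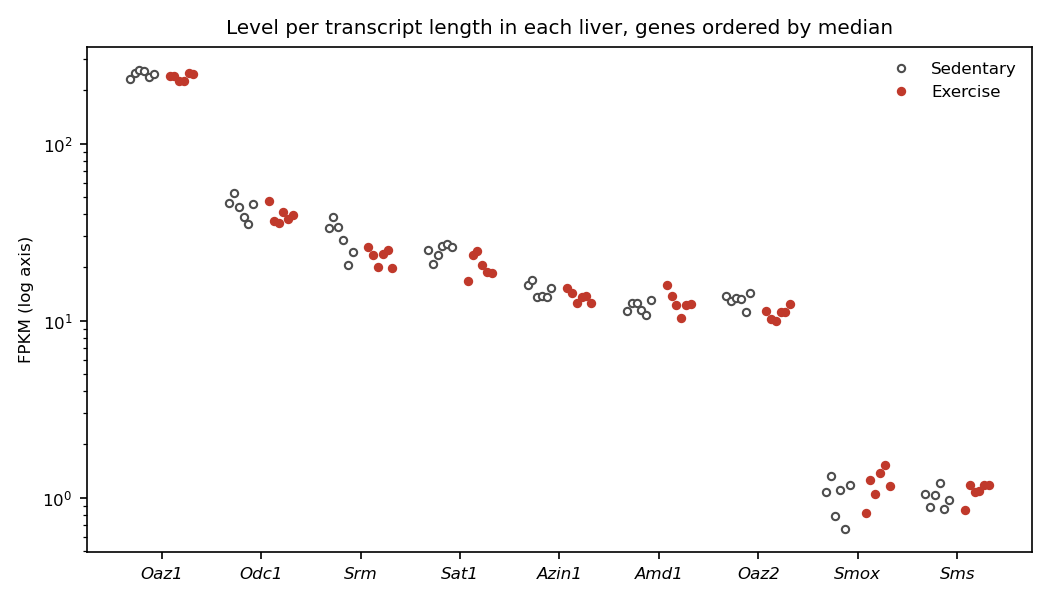
The y axis is FPKM on a log scale for each of the 9 genes, ordered by median from left to right, in the 6 Sedentary (open) and 6 Exercise (filled) livers. Oaz1 stands apart at 224 to 260 FPKM and Smox and Sms lie near 1 FPKM, while the groups of each gene overlap.

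Ratios of FPKM within a liver do not depend on how libraries are scaled against each other, and are given here as a description with no test. The ratio of Odc1 to Oaz1 was 0.147 to 0.21 in Sedentary and 0.149 to 0.198 in Exercise livers, and that of Odc1 to Azin1 was 2.58 to 3.23 and 2.57 to 3.13. Both had nearly the same range in the 2 groups. The ratio of Srm to Sms had a median of 28.3 in Sedentary (23.8 to 43.9) and of 20.7 in Exercise livers (16.9 to 30.5), and 5 of 6 Exercise livers were below the lowest Sedentary liver. This ratio rests on only 59 to 82 reads of Sms per liver, and neither gene was called in the main test. The ratio of Oaz2 to Oaz1 had medians of 0.0516 and 0.0458, with 3 of 6 Exercise livers below the lowest Sedentary one. The ratio of Sat1 to Odc1 spread widely in both groups, from 0.399 to 0.773 in Sedentary and from 0.353 to 0.696 in Exercise livers.

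Dividing the CPM of the unscaled library by FPKM returns the transcript length that each liver's FPKM was computed with, an average over the transcripts to which reads of a gene were assigned. For 5 genes (Odc1, Amd1, Srm, Oaz1 and Oaz2) this length was the same in all livers, within 0.08% of its median. It varied for Sat1, Smox, Azin1 and Sms. For Sat1 it was 1.25 to 1.35 kb (median 1.3) in Sedentary and 1.32 to 1.41 kb (median 1.37) in Exercise livers. All 6 Exercise livers were above the Sedentary median and 3 were above the longest Sedentary value. The mean length of Sat1 was 5.03% greater in Exercise livers, with an exact permutation p of 0.0152, which became 0.0608 after adjustment over the 4 lengths tested and so did not pass. For Smox, Azin1 and Sms the same exact permutation test gave p = 0.816, 0.662 and 0.931.

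**Figure D4:**
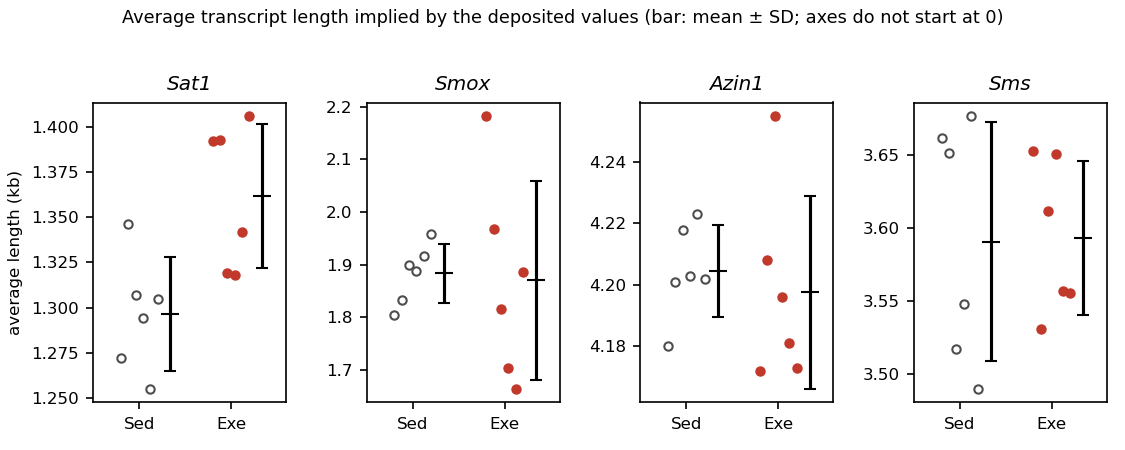
The y axes, which do not start at 0, give the average transcript length in kb implied by the deposited counts and FPKM values of the 4 genes whose length varied, in the Sedentary (Sed, open) and Exercise (Exe, filled) livers, with the mean ± SD as a bar. For Sat1 the 6 Exercise livers lie at 1.32 to 1.41 kb, all above the Sedentary median of 1.3 kb, and the other 3 genes show no such offset.

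This length enters the FPKM of Sat1 directly. On the log2 scale it differed by 0.07 between groups, and with limma on log2(FPKM + 0.1) the log2 fold change of Sat1 was -0.28 (adjusted p = 0.0219), past the threshold, against -0.11 from counts. The median of all genes tested was -0.09 in that fit, which is not scaled by TMM. Sat1 is known to have a spliced form with an additional exon that carries an early stop codon, used more when polyamines are low, and the mRNA with this exon is degraded. GENCODE M21 lists 7 transcripts of Sat1, among them the coding Sat1-201 of 1162 bases and Sat1-207, of 1272 bases, annotated as a target of nonsense-mediated decay, which differs by an exon of 110 bases (chrX:155215121-155215230 of GRCm38, minus strand). The windows below show the last 30 bases of the shared exon and the next 14 bases of each transcript, with the early stop codon of Sat1-207 in capitals.
Sat1-207: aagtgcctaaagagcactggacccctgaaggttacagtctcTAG
Sat1-201: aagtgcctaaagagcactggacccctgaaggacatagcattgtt
A further transcript, of 896 bases, is also annotated as coding, and the other 4 listed, of 525 to 1352 bases, retain introns. The greatest of the implied lengths, 1.41 kb in Exercise replicate 6, was above 1352 bases, the longest transcript listed. The lengths listed here therefore set no bound on the averages behind the deposited values. Which transcripts the deposited values of Sat1 drew on is not given in the sources used here, so its difference in average length was not assigned to any of them.

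Some livers were the extreme one of their group for many of the 9 genes. Exercise replicate 1 was the highest or lowest Exercise liver for 7 of the 9 genes and Sedentary replicate 2 the highest or lowest Sedentary liver for 6. The other livers were so for 1 to 5 genes. Each gene has a highest and a lowest liver in each group by construction, and how often these livers are extreme over all genes was not tested. Both had the highest Odc1, Srm and Azin1 of their group and the lowest Sms and Sat1. Exercise replicate 1 was also the Exercise liver with the highest striated muscle markers, and the part of this in its values was not tested. Without it, 0 of the 9 genes were called by edgeR and 4 had an unadjusted p under 0.05.

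All 36 pairs of the 9 genes were compared over the 12 livers on log2(CPM + 0.5) after each group's mean was subtracted, with 100000 permutations within the groups. None of the 36 passed adjustment by Benjamini-Hochberg, and 6 had an unadjusted p under 0.05. Odc1 and Sat1 ran in opposite directions (Pearson r = -0.72, permutation p = 0.012, adjusted p = 0.144; Spearman rho = -0.70, permutation p = 0.0174, adjusted p = 0.158). Within groups r was -0.91 in Sedentary and -0.60 in Exercise livers, and -0.59 without Exercise replicate 1 and Sedentary replicate 5. Srm and Sat1 also did so (r = -0.66, permutation p = 0.00948, adjusted p = 0.144; rho = -0.66, permutation p = 0.0167, adjusted p = 0.158; r = -0.61 without the 2 livers farthest in Sat1). Odc1 and Azin1 ran together (r = 0.68, permutation p = 0.0285, adjusted p = 0.245; rho = 0.61, permutation p = 0.054, adjusted p = 0.324), a relation that rested on Exercise replicate 1 and Sedentary replicate 2, since r was 0.21 without them. The strongest Pearson value, between Azin1 and Sms (r = -0.81, permutation p = 0.00683, adjusted p = 0.144; rho = -0.71, permutation p = 0.0176, adjusted p = 0.158), fell to -0.48 without those same livers and involves a gene whose spread did not exceed counting error. By Spearman the strongest pair was Azin1 and Oaz1 (rho = -0.76, permutation p = 0.0107, adjusted p = 0.158; r = -0.58, permutation p = 0.0627, adjusted p = 0.323). Its r was -0.89 in Sedentary and -0.14 in Exercise livers, and -0.87 without Exercise replicate 1 and Sedentary replicate 2. Odc1 with Sms (r = -0.66, permutation p = 0.034, adjusted p = 0.245; rho = -0.34) and Odc1 with Srm (r = 0.61, permutation p = 0.0452, adjusted p = 0.271; rho = 0.69) complete the 6 pairs.

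**Figure D5:**
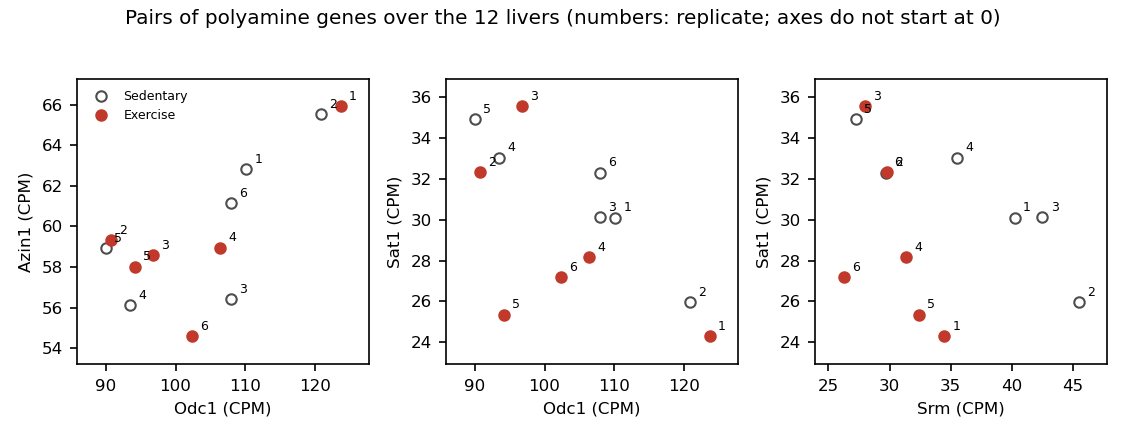
Each point is a liver (open, Sedentary; filled, Exercise; numbers give the replicate), with CPM of Odc1 or Srm on the x axis and CPM of Azin1 or Sat1 on the y axis, neither from 0. Sedentary replicate 2 and Exercise replicate 1 lie at the high end of Odc1 in both of its panels, with the highest Azin1 and the lowest Sat1 of their groups.

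The 3 genes whose level followed that of Odc1 most closely over the 12 livers, out of 7090 genes that averaged 10 CPM or more, were Ppp6r1 (Pearson r = 0.90), Smarca4 (r = 0.84) and Hspa4 (r = 0.82). They encode a subunit of protein phosphatase 6, the ATPase of a chromatin remodelling complex and a chaperone of the Hsp110 family. These values are the highest of many and are given as a description. None of the 3 genes was called between the groups by edgeR (adjusted p = 0.84, 0.233 and 0.343).

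Of 38 genes listed for neighbouring steps, 29 passed the filter and 14 were called by edgeR, 6 higher and 8 lower, which at 14 of 29 is near the 42.4% over all genes. Their median log2 fold change was 0.01.

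Of 3 other tested genes listed as polyamine enzymes or regulators, 2 were lower after exercise. Paox, which encodes the oxidase that acts on acetylated polyamines made by the Sat1 enzyme, was at 28.7, 32.2 and 36.3 CPM in Sedentary and 19.9, 24.0 and 26.2 CPM in Exercise livers (lowest, median and highest), without overlap. It fell by 0.47 on the log2 scale (SE 0.08, edgeR adjusted p = 0.000105). Sat2, named as a relative of Sat1, fell by 0.49 on the log2 scale (adjusted p = 0.00474), with 5 of 6 Exercise livers below the lowest Sedentary one. Agmat was not called, and Azin2, Oaz3 and Amd2 were too low to be tested. Paox overlaps Echs1 on the other strand, and whether reads were counted by strand is not given in the sources used here.

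Of 5 tested genes that act on or carry ornithine and arginine, 2 were called and both rose. Slc7a2, a transporter of arginine, lysine and ornithine, went from 126, 201 and 306 CPM in Sedentary to 516, 530 and 734 CPM in Exercise livers (lowest, median and highest), which is 1.48 on the log2 scale (SE 0.22, edgeR adjusted p = 0.000249). Slc25a15, the mitochondrial ornithine carrier, went from 165, 184 and 210 CPM to 309, 365 and 424 CPM, which is 0.98 on the log2 scale (SE 0.08, adjusted p = 7.66e-08). Neither gene overlapped between the groups, while Arg1, Oat and Otc were not called (adjusted p = 0.062, 0.119 and 0.842). Arg1 was called without Sedentary replicate 4 (adjusted p = 0.0389 from edgeR) or replicate 5 (adjusted p = 0.0128), and Oat by DESeq2 (adjusted p = 0.0483).

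Among 10 genes of S-adenosylmethionine supply and of the salvage of methylthioadenosine, the by-product of the aminopropyl steps, 2 rose and 4 fell. The call of Enoph1, among those that fell (adjusted p = 0.0336 from edgeR), was lost in 6 of 12 fits that left out a single liver. Mtap, the phosphorylase that opens this salvage, was at 22.1, 25.2 and 27.4 CPM in Sedentary and 13.8, 16.3 and 20.8 CPM in Exercise livers (log2 fold change -0.56, adjusted p = 3.71e-05 from edgeR, no overlap). Mri1, which encodes the next enzyme, fell by 0.55 on the log2 scale (adjusted p = 0.000148, no overlap). Ahcy, which hydrolyses S-adenosylhomocysteine, rose by 0.38 (adjusted p = 0.000983, no overlap). The other gene that rose was Mat1a, on the supply side, by 0.50 (adjusted p = 0.00734 from edgeR). Its groups overlapped, with 3 of 6 Exercise livers inside the Sedentary range.

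Of 8 tested transport genes, 3 were called. Slc3a2, the heavy chain shared by several amino acid transporters, rose by 0.30 on the log2 scale (adjusted p = 0.000174 from edgeR), and Atp13a2, a lysosomal polyamine exporter, by 0.20 (adjusted p = 0.0134), both without overlap. Slc47a1, an exporter of organic cations, fell by 0.16 (adjusted p = 0.0382). Dhps, which uses spermidine to make hypusine on eIF5A, fell by 0.24 (adjusted p = 0.0373) and was the 1 gene called of 3 in that step. The calls of Slc47a1 and Dhps were each lost in 9 of 12 fits that left out a single liver, and that of Atp13a2 with libraries scaled by size alone and in both FPKM fits.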

How the data were processed

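Liver mRNA of 12 mice was sequenced. The labels' processing notes name Bowtie2 2.3.4.3, RSEM 1.3.1 and mm10. The annotation and any use of strand are not given in the sources used here. The authors deposited an estimated count and an FPKM value per gene and liver. Of the deposited expected counts, 31.3% were not whole, and they were rounded. Groups came from the labels. The main test was the robust quasi-likelihood fit of edgeR 4.0.16 (R 4.3.3), with TMM factors, the filterByExpr filter at 10 counts, exercise as the only term and adjustment by Benjamini-Hochberg. Exact permutation tests (scipy 1.17.1) used all 924 relabellings, and 0.00216 is the smallest p they can give. DESeq2 1.42.0, limma 3.58.1 on voom weights and on FPKM, other scalings and filters, stricter thresholds, the replicate block and each liver left out were alternatives. Summing Amd1 and Amd2 was added after seeing the data. No pair of libraries was identical among 66, and within groups the chi-square per gene, 7.94 to 45.2, exceeded that of counting noise. The tests were tried on simulated data. All 9 genes are named, with up to 3 called genes of smallest p per neighbouring list, some further genes of those lists and the 3 genes most like Odc1. Members and lists were chosen with earlier results of these data known. Sequences are from GENCODE M21 (GRCm38, the same assembly as mm10).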

Additional observations from a re-analysis of the deposited data

Results flagged for a closer look

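In 3 of the 40 groups of 6 livers examined (the 9 polyamine genes and the 11 pathway genes named for their smallest p, in each group), a liver stood apart from the rest by Dixon's test at the 95% level, and chance gives about 1 in 20. Sms in Exercise replicate 1 was at 3.23 CPM, against 4.13 CPM in the nearest Exercise liver. Slc3a2 in Exercise replicate 4 was at 47.8 CPM, against 52.7 CPM in the nearest. Slc47a1 in Exercise replicate 4 was at 100.3 CPM, against 113 CPM in the nearest.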

How the results depend on the processing

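Of 319 alternative values, 280 kept the sign and the call of the main test, or a count within 1.5 times of it. The number of the 9 genes called was 0 in the main test, and 1 with upper quartile factors (Oaz2, lower), 2 with library size alone (Oaz2 and Srm, lower) and 3 in each FPKM fit, with 0.1 or 1 added (Oaz2, Sat1 and Srm, lower). In these scalings the median of all genes was -0.02, -0.10, -0.09 and -0.07 on the log2 scale, and the share of calls that were higher was 45.5%, 32.1%, 31.4% and 31.6%, against 49.8% in the main test. With each liver left out, 0 to 2 of the 9 genes were called, 0 to 1 higher (Amd1, without Exercise replicate 4) and 0 to 2 lower (Oaz2 without Exercise replicate 6, Oaz2 and Srm without Sedentary replicate 5, Srm without Sedentary replicate 6). In those same fits the log2 fold change of Odc1 ranged from -0.0954 to 0.00598 (without Sedentary replicate 2) and that of Azin1 from -0.0518 to 0.00671 (without Exercise replicate 6), with 0.00314 without Sedentary replicate 2. With library size alone they were -0.139 and -0.121. Oaz1 turned to -0.058 with library size alone and with FPKM + 0.1, and to -0.0578 with FPKM + 1. Neighbouring genes called numbered 9 at an adjusted p under 0.01 and 2 with at least a 1.5-fold change, and all genes called numbered 1581 with that fold. Samples shared only a number between groups: same-numbered livers correlated at -0.11 to 0.168 and 1 of 6 Exercise livers correlated best with its own number. With the replicate block, 0 of the 9 genes, 12 neighbouring genes and 4956 genes in all were called, with Arg1 gained and Enoph1, Slc47a1 and Dhps lost among the neighbouring genes. Depth limits Sms and Smox most. Apart from what the scalings and smaller samples change by construction, the cause was not tested.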
